A study of Drosophila melanogaster with 2 samples.

Results

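The intergenic peaks of CG14711 away from promoters are those reproducible peaks with a summit lying more than 500 bp from every annotated transcription start site (TSS) and outside every annotated gene. Of 5654 reproducible peaks, 324 met this rule, which is 5.73% (95% Wilson interval 5.15 to 6.37). Among the rest, 3619 had theirs no more than 500 bp from a TSS and are called promoter peaks, and 1711 lay inside genes farther from any TSS and are called genic peaks. The data are chromatin immunoprecipitation sequencing (ChIP-seq) from whole adult female Drosophila melanogaster of a stable transgenic line that makes CG14711 with GFP at its C terminus, with an antibody to GFP. The series has 1 group of 2 biological replicates, numbered 3 and 4, so both samples carry the transgene. The labels give the age of the flies as unknown and do not name the promoter that drives the fusion. A whole fly mixes all its tissues, so the cells in which a site was bound cannot be told apart.

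CG14711 belongs to the ZAD zinc finger proteins, a large insect family of DNA-binding proteins that carry a zinc-finger-associated domain at the N terminus and C2H2 fingers that read DNA. Sequence between genes holds enhancers, silencers and insulators in flies, and it also holds promoters of transcripts that no annotation lists. Known DNA-binding proteins there read short words, such as the DRE element read by Dref or the core site of the insulator protein CTCF.

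The sequences around the strongest intergenic summits come first. Each window below is the summit and 50 bases on either side of it, on the plus strand in dm6 coordinates, with the sequence from the RefSeq copy of this assembly. Capitals mark a match on either strand to the 8-base word CAACCCTG, which an earlier look at these peaks had picked out, to the DRE element TATCGATA, or to the CTCF core AGNNGGCGC. The first set is shown because it holds 8 of the 10 strongest intergenic peaks.
Rh5 and lncRNA:CR44588, chr2L:12012301-12012401: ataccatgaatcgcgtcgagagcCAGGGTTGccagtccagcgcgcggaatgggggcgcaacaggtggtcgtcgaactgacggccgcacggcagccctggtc
COX7AL2 and CG31668, chr2L:2202351-2202451: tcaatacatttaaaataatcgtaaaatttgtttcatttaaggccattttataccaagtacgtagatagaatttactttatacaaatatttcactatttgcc
beside lncRNA:CR43437, chr4:416371-416471: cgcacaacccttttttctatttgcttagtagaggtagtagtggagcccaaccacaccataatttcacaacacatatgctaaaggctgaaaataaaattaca
Sol1 and Cyp9f2, chr3R:12403080-12403180: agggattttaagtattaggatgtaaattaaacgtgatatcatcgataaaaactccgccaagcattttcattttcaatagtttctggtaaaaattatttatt
aln and trio, chr3L:995821-995921: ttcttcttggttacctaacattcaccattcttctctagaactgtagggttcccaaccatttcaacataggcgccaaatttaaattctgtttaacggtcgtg
CG5535 and CG34002, chr3L:17857292-17857392: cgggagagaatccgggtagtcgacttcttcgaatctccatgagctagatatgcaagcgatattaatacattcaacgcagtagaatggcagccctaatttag
CG17896 and CG17778, chrX:493966-494066: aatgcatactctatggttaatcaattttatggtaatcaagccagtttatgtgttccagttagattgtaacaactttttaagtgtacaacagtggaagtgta
Alp13 and lncRNA:CR45054, chr3R:10079702-10079802: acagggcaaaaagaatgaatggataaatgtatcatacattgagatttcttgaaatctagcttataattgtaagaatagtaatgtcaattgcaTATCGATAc
The window between Rh5 and lncRNA:CR44588 holds the 8-base word and is 66.3% G + C, the highest of all 324. The window between COX7AL2 and CG31668, second in signal, holds none of these motifs and is 23.8% G + C. The window between Alp13 and lncRNA:CR45054 holds a DRE element near its right edge.

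The second set is shown because it holds the other intergenic windows with the 8-base word.
lncRNA:CR46113 and heca, chr3R:30277006-30277106: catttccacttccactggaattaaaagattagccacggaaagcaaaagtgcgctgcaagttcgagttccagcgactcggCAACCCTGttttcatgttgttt
CG7330 and CG13699, chr3L:18154293-18154393: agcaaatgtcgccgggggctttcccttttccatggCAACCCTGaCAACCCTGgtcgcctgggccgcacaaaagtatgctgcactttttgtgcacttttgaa
sty and eIF5B, chr3L:3425466-3425566: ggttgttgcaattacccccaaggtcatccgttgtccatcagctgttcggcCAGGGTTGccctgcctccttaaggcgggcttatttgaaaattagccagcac
CG9701 and CG42852, chr3L:16748991-16749091: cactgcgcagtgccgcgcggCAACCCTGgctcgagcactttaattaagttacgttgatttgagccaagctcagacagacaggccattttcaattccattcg
The word is preceded by G, read along its own strand, at least once in all 5 windows (56.6 to 100%). The same G stood before it at 56.2% of promoter peaks with the word (46.6 to 65.3). At genic peaks with the word it was 68.9% (54.3 to 80.5), and the intergenic interval overlaps both. The window between CG7330 and CG13699 holds the word in 2 places. The third set is shown for the CTCF core, whose share stood out among the motifs searched, and was chosen after the values were seen.
jp and lncRNA:CR44149, chr2L:9567472-9567572: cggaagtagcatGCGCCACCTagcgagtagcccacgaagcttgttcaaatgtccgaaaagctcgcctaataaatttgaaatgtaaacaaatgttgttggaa
soti and cv-c, chr3R:14391392-14391492: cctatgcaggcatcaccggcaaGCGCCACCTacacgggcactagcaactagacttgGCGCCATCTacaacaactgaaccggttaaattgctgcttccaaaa
ImpL2 and asRNA:CR45738, chr3L:4239585-4239685: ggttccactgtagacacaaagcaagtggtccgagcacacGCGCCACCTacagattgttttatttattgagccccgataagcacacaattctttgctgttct

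Signal was lower at intergenic than at promoter peaks, and close to that of genic peaks. The deposited signal value, which ranks peaks within a list, had a median of 218 at the 324 intergenic peaks (95% interval of the median 208 to 240), against 268 at promoter peaks (261 to 275) and 244 at genic peaks (235 to 252), whose interval overlaps that of the intergenic peaks. The middle 50% of the intergenic peaks lay between 178 and 342, and the whole range was 147 to 4552. Of the intergenic peaks 43, or 13.3%, stood in the strongest quintile of the reproducible list, against 23.1% of promoter peaks and 14.7% of genic peaks. Among the 100 strongest peaks were 2 of them, or 0.617% (0.169 to 2.22), against 2.38% of promoter peaks (1.93 to 2.93) and 0.701% of genic peaks. Intergenic peaks had a median width of 264.5 bp (243 to 283), against 336 bp (329 to 345) for promoter peaks and 270 bp (264 to 279) for genic peaks. These intervals cover the sampling of peaks only, because the lists hold no read counts and depth is unknown, and peaks of the same 2 libraries are not replicates of each other.

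The reproducible list consists of the strongest peaks of a list of 30000 called on both replicates together, of which 18.8% entered it. Of 3456 intergenic peaks in the pooled list, 324 entered, or 9.38% (8.45 to 10.4), against 31.3% of promoter peaks and 11.4% of genic peaks. Membership of the reproducible list is part of the rule, so these shares describe the selection and nothing is read from them. The 3132 intergenic pooled peaks that stayed out, with signals up to 146, serve below as a second set for comparison.

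Fewer intergenic peaks recurred in both replicates. A peak was counted as recurring where it overlapped, by at least 1 bp, the 5654 best peaks of a replicate's own list. This held in both replicates for 189 intergenic peaks, or 58.3% (52.9 to 63.6), against 73.8% of promoter peaks (72.3 to 75.2) and 66.8% of genic peaks (64.5 to 69.0). The share over the whole reproducible list was 70.8%. The difference was larger in replicate 3, whose best peaks took in 69.1% of the intergenic peaks (63.9 to 73.9), against 83.1% of promoter peaks. Replicate 4's best peaks took in 86.4% of intergenic peaks (82.3 to 89.7), against 89.3% of promoter peaks. In all, 91 intergenic peaks were found in replicate 4 alone, 35 in replicate 3 alone and 9 in neither.

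Recurrence was higher at higher signal. The signal of a pooled peak draws on both replicates, so the strongest peaks of the list are nearly bound to be among the best of each, and in the first 2 quintiles the share was near its ceiling in every class. All 43 intergenic peaks in the strongest quintile of the reproducible list recurred in both replicates, and so did 52 of 53 in the second quintile. In the third quintile 78.8% recurred (67.5 to 86.9), against 84.7% of promoter peaks in that quintile. In the fourth quintile the classes stood apart: 34.4% of 90 intergenic peaks recurred (25.4 to 44.7), against 56.8% of promoter peaks (53.0 to 60.4) and 52.2% of genic peaks (46.9 to 57.4). In the weakest quintile the shares were 15.3% (8.75 to 25.3) for intergenic, 21.7% for promoter and 12.9% for genic peaks. The lower share of intergenic peaks over the whole list goes together with their lower signal and with the gap in the fourth quintile.

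**Figure D1:**
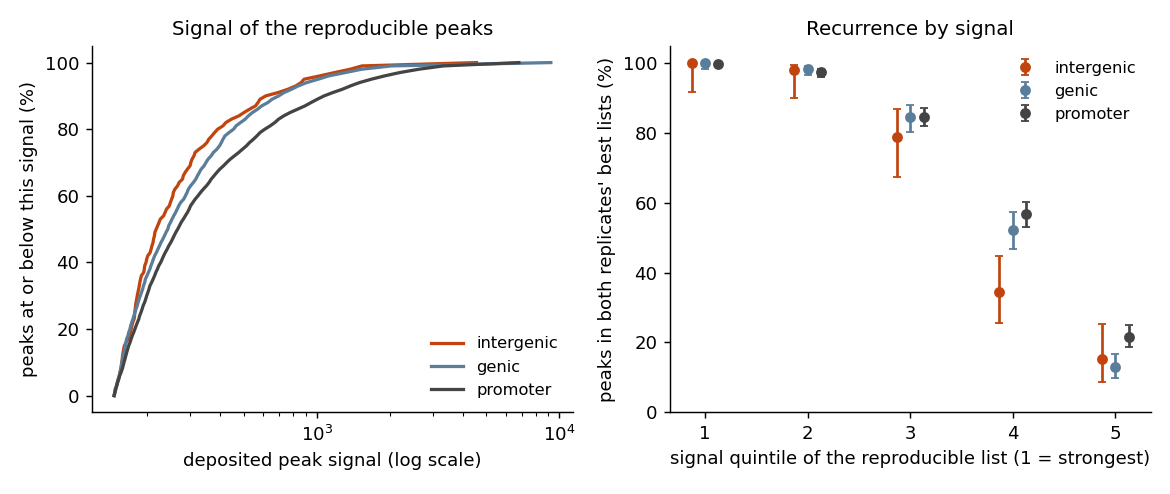
Left, the percentage of reproducible peaks at or below each deposited signal value (log scale) for intergenic, genic and promoter peaks. Right, the percentage of each class that overlapped the best peaks of both replicates, by signal quintile, with 95% Wilson intervals; intergenic peaks sit at 34.4% in the fourth quintile, against 56.8% of promoter peaks.

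A summit within 100 bp was present in the full lists of both replicates for 300 of the 324 intergenic peaks, or 92.6%. It was present in replicate 4 only for 18, or 5.56%, and in replicate 3 only for 6, or 1.85%. Over the whole reproducible list these shares were 92.4, 5.47 and 1.96%, so the intergenic peaks were close to them. For the 300 intergenic peaks in both lists, the replicate 3 summit lay a median of 20.5 bp from that of the reproducible peak (16 to 25). At promoter peaks it was 20 bp (19 to 21), so the median distances differed by less than their intervals. The matching rule caps this distance at 100 bp. Spearman's rho between the replicates' ranks was 0.529 over the 300 intergenic peaks, 0.709 over 3319 promoter peaks and 0.645 over 1605 genic peaks. These coefficients are descriptions across peaks that share 2 libraries, and the middle 50% of signals spanned 178 to 342 at intergenic peaks against 189 to 514 at promoter peaks. The better of the 2 ranks was in replicate 4 for 182 of 300 intergenic peaks, or 60.7% (55.0 to 66.0), against 53.5% of promoter peaks (51.8 to 55.2). The rank differed over 4-fold at 16 of the 300, or 5.33% (3.31 to 8.49), against 4.73% over the whole reproducible list.

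**Figure D2:**
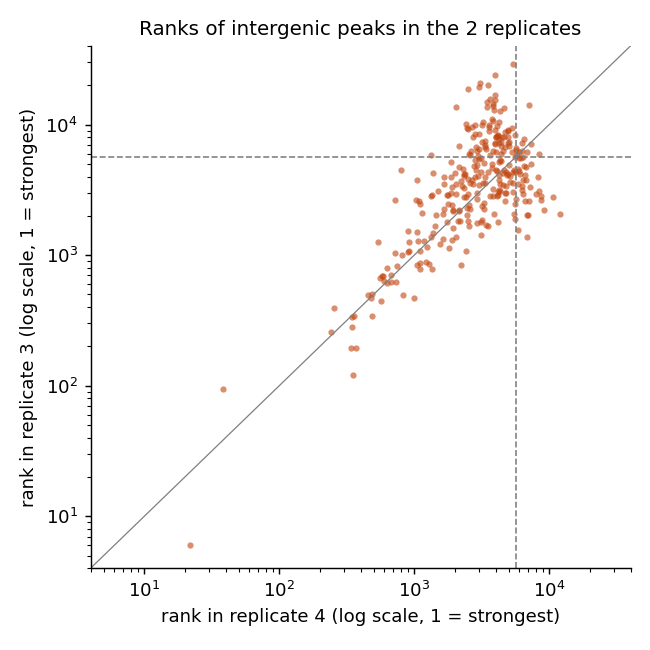
Ranks of the 300 intergenic peaks whose summit both replicates' lists held to within 100 bp, replicate 4 across and replicate 3 up (log scales, 1 is strongest). The solid line marks equal ranks and dashed lines mark the 5654 best peaks; strong peaks follow the line, and the cloud above the horizontal dashed line holds peaks that replicate 3 ranked lower.

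The strongest intergenic peak lay on 2L between Rh5, which encodes a blue-sensitive opsin of the eye, and lncRNA:CR44588. It spanned 12011767 to 12012668, had a signal of 4552 and stood at place 15 of the whole reproducible list. It ranked 6 in replicate 3 and 22 in replicate 4, so it was among the top peaks of each. The summit lay 2519 bp past the 3′ end of Rh5 and 1177 bp upstream of the lncRNA. Another 2 intergenic peaks in the same gap had signals of 572 and 302, and 3 more, with signals of 172 to 497, lay in the neighbouring gap between Hacd1 and Rh5. Neither Rh5 nor the lncRNA had a promoter peak of its own.

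The second strongest, also on 2L, lay at 2202149 to 2202632 in the gap between COX7AL2, a relative of a cytochrome c oxidase subunit, and CG31668. Its signal was 3178, and it ranked 95 in replicate 3 and 38 in replicate 4. That gap of 5808 bp held 4 intergenic peaks, whose other signals were 843, 355 and 180. COX7AL2 had a promoter peak and CG31668 did not. After these the signal dropped to 1649 at the third, on chromosome 4 (416218 to 416716), which lay 9646 bp upstream of lncRNA:CR43437 and ranked 121 in replicate 3 and 353 in replicate 4.

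Several of the next strongest lay in short gaps where genes end. The peak at 12402940 to 12403317 on 3R, with a signal of 1551, sat in a gap of 437 bp between the 3′ ends of Sol1 and Cyp9f2, a cytochrome P450 gene. The peak at 995657 to 996093 on 3L, with a signal of 1490, sat in a gap of 278 bp, the shortest that held an intergenic peak, between the 3′ ends of aln and trio. The second of these peaks is 437 bp wide, wider than its gap, and covers the ends of both genes. Cyp9f2 and trio each had a promoter peak as well. On 2R the peak of signal 1343 lay 120 bp past the 3′ end of RpS23, a gene for a protein of the small ribosomal subunit. The peak of signal 1399, also on 2R, lay in a gap of 36783 bp. Its nearest gene was CG13323, whose 3′ end was 9322 bp away. The gene on the other side, 27462 bp away, was Su(z)2, a relative of the Polycomb group gene Psc. On 3L the peak of signal 1436 lay 548 bp upstream of CG5535, and on X the peak of signal 1297 lay 521 bp upstream of CG17896.

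The other named peaks among the 25 strongest had signals of 819 to 1292. They included a pair in the gap between Alp13 and lncRNA:CR45054 (1292 and 992), 1 upstream of heca (1136), which encodes headcase, a regulator of imaginal progenitor cells, and 1 in a gap of 801 bp between CG4596 and Sodh2, a sorbitol dehydrogenase gene (1029). X contributed a peak between lncRNA:CR46243 and lncRNA:CR44999 (1053) and 1 between CG33080 and Snx27, a sorting nexin gene (881). 3L contributed a peak beside CG43245 (1031), 1 at 10396 bp upstream of shep (892), an RNA-binding protein gene, and 1 beyond scyl (879), an inhibitor of growth signalling through TOR. On 3R a peak of signal 866 lay 3360 bp upstream of foxo, the forkhead factor restrained by insulin signalling, and a pair of signals 858 and 819 lay on either side of lncRNA:CR45643 near tara. On 2L a peak of signal 888 lay between CG9498 and ppk7, a sodium channel gene of the pickpocket family. On 2R a peak of signal 821 lay between blw, a subunit of the mitochondrial ATP synthase, and CycB, the mitotic cyclin B, and another of signal 821 lay 1303 bp upstream of Sesn, which encodes sestrin.

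All 25 recurred among the best peaks of both replicates, and their lowest ranks were 1268 in replicate 3 and 826 in replicate 4. The gaps of 7 were divergent, 13 tandem and 5 convergent. A lncRNA, tRNA or other non-coding RNA stood on at least 1 side of 13, and 2 of the 25 windows held the 8-base word. All 6 arms appear among the 25.

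The intergenic peaks were spread over every arm. To compare arms, the sequence on which such a peak could fall was counted: bases outside genes and more than 500 bp from every TSS, 36.3 Mb in all. Arm 3L held 92 intergenic peaks (10.3 per Mb of this sequence), 3R 74 (9.67), 2L 58 (8.64), X 53 (10.1), 2R 44 (5.91) and chromosome 4 only 3 (12.2). The density over all arms was 8.93 per Mb. Arm 2R was thus the sparsest, and it was also the sparsest for pooled intergenic peaks outside the reproducible list, at 70.1 per Mb against 86.4 over all arms. The X held 16.4% of the intergenic peaks (12.7 to 20.8) and 14.5% of the counted sequence.

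Peaks crowded into short gaps. Counted once per peak, the gap around an intergenic peak had a median length of 5222 bp (4141 to 6560). For pooled intergenic peaks outside the reproducible list it was 8328 bp (7901 to 8823). Gaps under 2000 bp held 76 peaks at 52.0 per Mb of counted sequence, and density fell at every step to 1.12 per Mb in gaps over 50000 bp, where 9 peaks lay. The pooled intergenic peaks outside the list ran the same way, with 307 per Mb in the shortest class of gaps and 9.98 in the longest.

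Gaps between diverging genes held more of the peaks than their share of sequence. Divergent gaps, with a gene start on both sides, held 96 of the 324, or 29.6% (24.9 to 34.8), and 21.2% of the counted sequence. Tandem gaps held 158, or 48.8% (43.4 to 54.2), and 52.2% of the sequence. Convergent gaps, with a gene end on both sides, held 69, or 21.3% (17.2 to 26.1), and 26.7% of the sequence, and 1 peak lay beyond the last gene of an arm. The densities were 13.0, 8.67 and 7.41 per Mb. The order was not the same at every gap length. In gaps under 2000 bp the densities were 87.4 per Mb in divergent gaps (13 peaks), 60.8 in tandem gaps (46 peaks) and 30.5 in convergent gaps (17 peaks). In gaps of 2000 to 5000 bp divergent and tandem gaps were level, at 27.8 and 28.5 per Mb, and in gaps of 20000 to 50000 bp divergent gaps had fewer than convergent ones, 4.18 against 6.44 per Mb. Pooled intergenic peaks outside the list also lay more often in divergent gaps, with 829 of 3132 or 26.5%, a share inside the interval of the intergenic peaks. Their densities in divergent and convergent gaps were 316 and 314 per Mb under 2000 bp, 237 and 174 from 2000 to 5000 bp, and 161 and 109 from 5000 to 10000 bp. The median signal was 246 in divergent gaps (215 to 280), 213 in tandem gaps (197 to 238) and 205 in convergent gaps (187 to 253), and these intervals overlap.

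**Figure D3:**
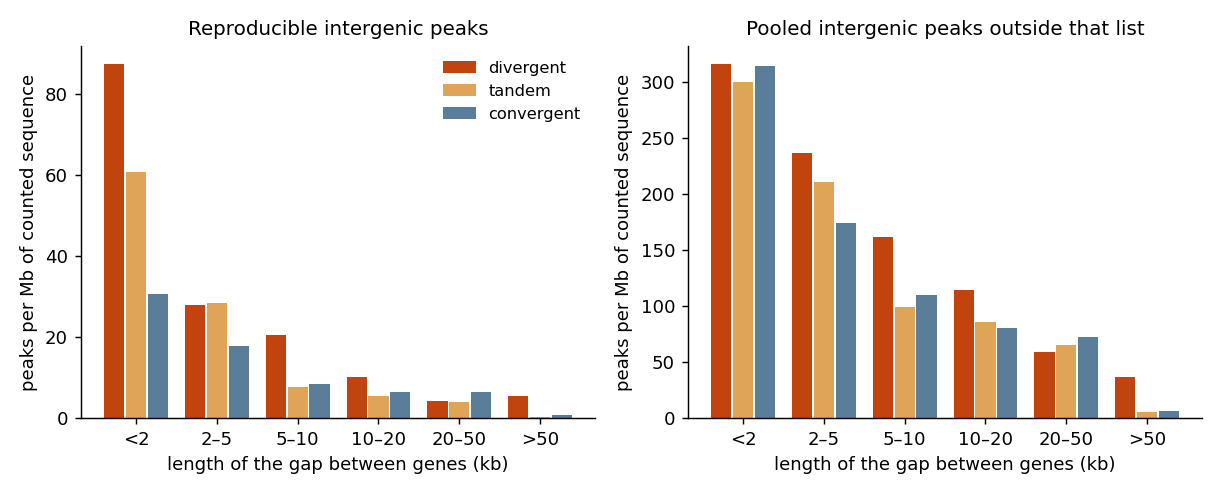
Peaks per Mb of counted sequence by length of the gap between genes (kb), for divergent, tandem and convergent gaps. Left, the intergenic peaks, at 87.4, 60.8 and 30.5 per Mb in the shortest gaps; right, pooled intergenic peaks outside the reproducible list, at 316 per Mb in divergent and 314 per Mb in convergent gaps there, with divergent gaps ahead in gaps of 2 to 20 kb.

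The nearest gene edge was a 5′ end for 167 intergenic peaks, or 51.5% (46.1 to 56.9), against 45.7% of the counted sequence and 46.3% (44.6 to 48.0) of pooled intergenic peaks outside the list. The median distance to the nearest edge was 942 bp (811 to 1165) for the intergenic peaks and 1453 bp (1375 to 1550) for those pooled peaks. All 74 intergenic peaks within 500 bp of a gene lay at its 3′ end, which the distance rule imposes. Of these, 55 were within 250 bp of the 3′ end, at 43.8 per Mb, against 18.8 per Mb from 250 to 500 bp. Peaks nearest a 5′ end had a median signal of 238 (216 to 264) and those nearest a 3′ end 205 (188 to 222). The nearest TSS was a median of 1600.5 bp away (1380 to 1794), and 21 peaks were over 10 kb from any TSS. The most remote, in the gap beside CG10651, was 43192 bp from one.

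The 500 bp limit cuts a continuous spread of distances. Just outside it stood intergenic peaks 505 bp from TSSs of Liprin-gamma (signal 253) and CG32091 (200), and 515 bp from that of Sodh2 (1029). Just inside, and so counted as promoter peaks, were peaks at 491 bp from CG3505 (184), 489 bp from Zip89B (485) and 483 bp from CG5973 (295).

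Genes beside an intergenic peak often had a promoter peak too. Of the 324, 173 had at least 1 flanking gene with a promoter peak in the reproducible list, or 53.4% (48.0 to 58.8), and at 39 of them both genes had one. Of the counted sequence 13.9% lay beside such a gene, and of the pooled intergenic peaks outside the list 33.8% did (32.2 to 35.5). Gap length moves with this: the intergenic peaks lay in shorter gaps than those pooled peaks, as given above, and its part in the difference was not tested. The median signal was 245 with 1 such gene (213 to 282), 221 with both (178 to 282) and 208 with none (187 to 225).

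Intergenic peaks came in groups in some gaps. The 324 lay in 257 gaps, of which 220 held 1 peak, 19 held 2, 10 held 3, 4 held 4 and 4 held 5. In all, 120 peaks, or 37.0% (32.0 to 42.4), had another within 10 kb. The median signal of these 120 was 236 (212 to 286), against 214 (198 to 235) for the 204 farther apart. Another lay within 1 kb of 45 peaks and within 250 bp of 8. The labels give fragment sizes of 200 to 800 bp, and whether such near summits are separate sites was not tested. The share was not computed for other classes of peak, so it has no baseline here. The 4 gaps with 5 peaks each were all on 3L. The gap between scyl and lncRNA:CR44720 held peaks with signals of 162, 196, 601, 879 and 478 over 16339 bp. The gap between NijA, a cell surface ninjurin, and CG43245 held signals of 215, 547, 584, 470 and 234 over 58037 bp of a 75047 bp gap. The gap between tRNA:Ile-TAT-1-2 and CG13898 held signals of 241, 167, 187, 528 and 188. The gap between lncRNA:CR44526 and SrpRbeta, a subunit of the signal recognition particle receptor, held signals of 241, 171, 256, 364 and 205. The peaks within a gap differed in signal, and their ranks also differed between replicates. The strongest of the tRNA:Ile-TAT-1-2 gap ranked 4461 in replicate 3 and 793 in replicate 4, and the third of the SrpRbeta gap ranked 13653 in replicate 3 and 2037 in replicate 4.

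The intergenic peaks had 495 flanking genes, which is 5.32% of the 9304 genes that border counted sequence. Of the 495, 379 were protein-coding, or 76.6% (72.6 to 80.1), against 82.0% of all bordering genes, and 97 were lncRNA genes, or 19.6% (16.3 to 23.3), against 13.9%. By position the order turned round: 35.8% of the peaks (30.8 to 41.2) had a lncRNA beside them, against 40.2% of the counted sequence. A tRNA gene stood beside 13 peaks, or 4.01% (2.36 to 6.74), against 1.62% of the sequence, but 8 of the 13 lay in only 2 gaps, those of tRNA:Ile-TAT-1-2 and tRNA:Ser-GCT-2-2. Counted by gene, tRNAs were 7 of the 495, or 1.41% (0.687 to 2.89), against 0.903% of all bordering genes.

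Of 7 gene lists, the genes of the ecdysone and hormone response had the highest share beside an intergenic peak, 5 of 21 that border counted sequence (23.8%), against 5.32% of all. Eip93F, an ecdysone-induced transcription factor of metamorphosis, had 2 peaks upstream, at 11826 bp (signal 423) and 17566 bp (227). Blimp-1, an ecdysone-induced repressor, had 1 at 19076 bp upstream (179), and Kr-h1, a zinc finger factor of the juvenile hormone response, had 1 at 2204 bp upstream (157). The nuclear receptor gene Hr38 had 1 at 689 bp upstream (179), and Hr51, another nuclear receptor gene, had 1 at 295 bp past its end (159), which lies between it and unc-5, a netrin receptor gene. Of these 6 peaks only the stronger one at Eip93F ranked within the best 5654 of both replicates. The counts are small, and the list was 1 of 7.

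The shares of the other lists ran from 0 to 6.67%, on small counts. By position, the density beside genes of the 4 larger lists was below the 8.93 per Mb over all counted sequence: 4.49 per Mb for patterning factors, 4.48 for signalling genes, 3.83 for channels and receptors and 1.78 for adhesion and guidance genes. It was above 8.93 beside ecdysone and hormone genes, at 28.4 per Mb (6 peaks in 0.211 Mb). Beside cell cycle genes it was 43.9 per Mb, from 1 peak in 0.0228 Mb. Of 78 patterning and homeobox factors 5 bordered an intergenic peak (6.41%): vvl, a POU-domain factor whose peak lay 58672 bp away (405), srp, a GATA factor of blood and fat body (317), ey, the Pax6 factor of eye development (304), hry, the pair-rule repressor hairy (214 and 198), and exex, a homeobox factor of motor neurons (184). Of 43 signalling genes 2 did, myo, a ligand of the TGF-beta family that shares its peak with ey, and vn, a ligand of the EGF receptor (227). Of 49 channels and receptors 2 did, nAChRalpha7 (633) and the calcium channel Ca-alpha1T (528). Of 74 genes of neuronal adhesion and guidance 2 did, dpr20 (577) and unc-5 (159). CycB was the only one of 15 cell cycle genes, and none of 9 genes for insulator and promoter factors bordered one. Only 0.00326 Mb of counted sequence lay beside those 9 genes, too little to read anything from the 0.

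Annotated transposable elements were nearly free of intergenic peaks. Only 2 summits lay inside one, or 0.617% (0.169 to 2.22), against 1.37% (1.02 to 1.84) of pooled intergenic peaks outside the list and 10.9% of the counted sequence. How reads that match many copies were handled is not given in the sources used here, and its part in this was not tested.

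The summits were A + T rich. The summit window had a median G + C content of 31.7% (29.7 to 32.7) at intergenic peaks, against 34.7% at promoter peaks and 31.7% at genic peaks. Windows 300 bp to either side of the intergenic summits had 41.6% (40.6 to 42.6), as had all counted sequence, and pooled intergenic peaks outside the list had 37.6%. The intergenic peaks differed widely among themselves, from 13.9 to 66.3%. Of the 324 windows 78 were under 25% G + C, or 24.1% (19.7 to 29.0), against 5.91% of counted sequence. The stronger 50% of the intergenic peaks had a median of 29.7% (28.7 to 31.7) and the weaker 50% had 32.7% (31.7 to 34.7).

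**Figure D4:**
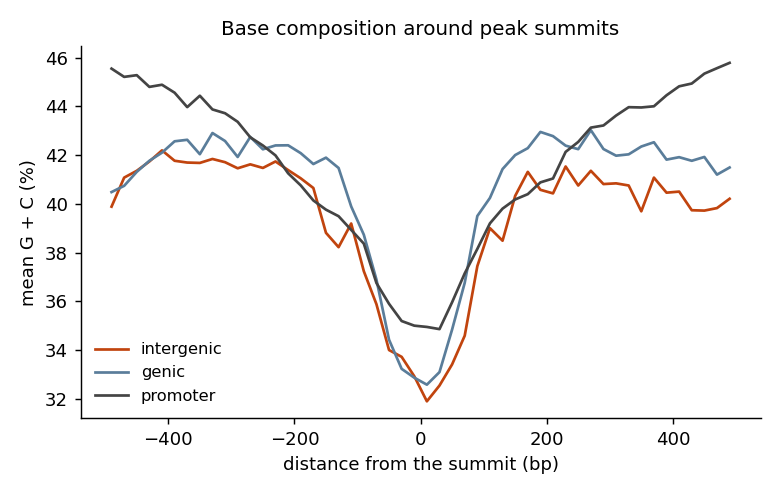
Mean G + C content (%) in steps along 500 bp on either side of the summit, for intergenic, genic and promoter peaks. The intergenic curve falls to 31.9% at the summit, against 39.9 and 40.2% at its outer ends.

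The word CAACCCTG was rare at intergenic peaks. It stood in 5 of 324 windows on either strand, or 1.54% (0.661 to 3.56), against 2.90% (2.40 to 3.50) at promoter peaks and 2.63% (1.97 to 3.50) at genic peaks, and these intervals overlap. It stood in none of 648 windows beside the intergenic summits, which allows a share of up to 0.589% (Wilson), and in 0.112% of windows over all counted sequence and 0.602% of windows at TSSs. All 5 windows were among the 75 with at least 40% G + C, and none was among the other 249. Their signals were 4552 at the Rh5 gap, 1136 upstream of heca, 199 between CG7330 and CG13699, 182 between sty, an inhibitor of receptor tyrosine kinase signalling, and eIF5B, and 147 between CG9701 and CG42852. The word thus marked the strongest intergenic peak and also one of the weakest, and 319 of the 324 had none within 50 bp of the summit.

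Motifs known from promoters were rare at both intergenic and genic summits. The DRE element TATCGATA, a palindrome, was in 2 windows, or 0.617% (0.169 to 2.22), against 4.01% (3.41 to 4.70) at promoter peaks, 0.292% (0.125 to 0.682) at genic peaks, 0.216% of counted sequence and 3.76% at all TSSs. The windows were those at Alp13 (signal 1292) and at SrpRbeta (205). The M1BP site GGTCACACT was in no intergenic window, which allows up to 1.17%, against 2.02% (1.61 to 2.53) at promoter peaks, 0.0584% at genic peaks and 0.0444% of counted sequence. The E-box CACGTG was also in none, against 2.62% (1.64 to 4.16) of the windows beside these summits, whose G + C content was higher, and 1.09% of all counted sequence. It was rare in every class of peak, at 0.829% (0.581 to 1.18) of promoter and 0.584% (0.318 to 1.07) of genic peaks. The homeodomain core TAATTA was in 10.2% (7.34 to 14.0), against 10.8% at promoter peaks and 7.41% of counted sequence.

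Among the 13 motifs searched, the CTCF core AGNNGGCGC was the one whose interval at intergenic peaks lay above those of promoter and genic peaks. That interval overlapped those of the windows beside the summits and of pooled intergenic peaks outside the list. The core stood in 9 windows, or 2.78% (1.47 to 5.19), against 0.912% (0.650 to 1.28) at promoter peaks and 0.701% (0.402 to 1.22) at genic peaks. It stood in 1.23% (0.627 to 2.42) beside the intergenic summits, 1.34% (0.994 to 1.81) of those pooled peaks and 0.618% of counted sequence. Of its 13 matches 7 read AGGTGGCGC and 4 read AGATGGCGC. With only these 2 spellings, chosen after the matches were seen, 8 intergenic windows held it, or 2.47% (1.26 to 4.80), against 0.249% (0.131 to 0.472) at promoter peaks, 0.351% (0.161 to 0.763) at genic peaks, 0.798% (0.541 to 1.18) at pooled intergenic peaks outside the list and 0.110% of counted sequence. None of the 648 windows beside the summits held either spelling. Both spellings were picked from the intergenic matches, which favours the intergenic windows. Nothing is therefore read from the shares with only these 2 spellings.

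Apart from the strongest, the 9 peaks were of low to middling signal. The strongest, between jp, which encodes junctophilin, and lncRNA:CR44149 on 2L, had a signal of 753 and ranked 471 in replicate 3 and 992 in replicate 4. The next, between soti and cv-c, had 289, and the peak between ImpL2, a secreted binding protein of insulin-like peptides, and asRNA:CR45738 had 282. The other 6 had signals of 151 to 216. In replicate 3 the peaks near CG14762 (rank 7000), sbr (5721), lncRNA:CR45303 (7392), CG13306 (8749) and Jhbp1 (23805) fell outside the best 5654. In replicate 4 all 9 ranked within the best 5654, at places 992 to 4686. A match in a window is a description of its letters, and binding of CTCF was not measured here.

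**Figure D5:**
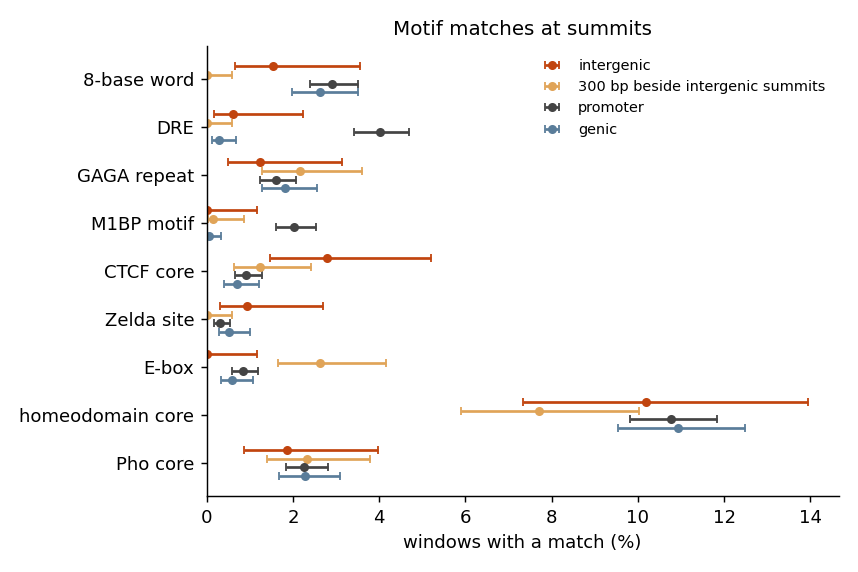
Percentage of summit windows holding each motif on either strand, with 95% Wilson intervals, for intergenic peaks, windows 300 bp beside their summits, promoter peaks and genic peaks. The CTCF core is at 2.78% at intergenic peaks against 0.912% at promoter peaks, and the DRE and M1BP motifs are near 0 at intergenic and genic peaks against 4.01 and 2.02% at promoter peaks.

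Further motifs searched on both strands gave shares at intergenic peaks that overlapped those of promoter peaks within their intervals: the GAGA repeat GAGAGAG in 1.23% against 1.60%, the Su(Hw) core TGCATACTT in 0.309% against 0.193%, the Zelda site CAGGTAG in 0.926% against 0.304%, the Pho core GCCATNTT in 1.85% against 2.27%, and runs of A (AAAAAAAA) in 4.94% against 7.49%. The CA repeat CACACACA was in 0.617% against 1.77%. The Grainy head site AACCGGTTT was in no window of either class.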

How the data were processed

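The deposited lists are narrowPeak files of replicate 3, replicate 4, both pooled (30000 peaks each) and the reproducible list selected by the irreproducible discovery rate (IDR), all on dm6 per the labels. Column 7 holds the signal value as the authors deposited it, and column 9 the deposited −log10 q value, which takes 1 value over the whole IDR list and was not used further. The sources used here give no aligner, caller or IDR threshold. Signals were ranked within a list only. The files hold no read counts, so depth is unknown.

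Summits were placed against Ensembl release 115 genes of BDGP 6.54 (18164 genes and 23581 TSS positions on 2L, 2R, 3L, 3R, 4 and X, without transposable elements). Shares carry Wilson 95% intervals and medians order-statistic intervals; both cover the sampling of peaks only. No test was run, since there is 1 group. Helper functions were tested on simulated data. Python 3.11.15, NumPy 2.4.6 and SciPy 1.17.1 were used. Named were the 25 intergenic peaks of highest signal, 5 of the gaps with the most peaks (4 with 5 peaks and, of 4 tied at 4 peaks, the one of highest summed signal), peaks nearest the limit, and listed genes beside a peak. The members, lists and motifs were chosen with earlier results of these data known.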

Additional observations from a re-analysis of the deposited data

How the results depend on the processing

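Each of 13 results was recomputed under the alternatives, which gave 132 values, and 97 of them stayed inside the 95% interval of the reported value. With the limit at 250 bp from a TSS the intergenic share was 9.21%, the median distance to a TSS 785 bp and to a gene edge 476 bp, the upstream share 62.4%, the convergent share 13.8% and the share beside a gene with a promoter peak 70.6%. At 1000 bp the intergenic share was 3.91%, the distances 2532 and 1706 bp and the convergent share 28.1%. At 2000 bp they were 2.39%, 3954 and 3054 bp and 31.9%, with an upstream share of 45.9%, an X share of 12.6% and 49.6% of peaks within 10 kb of another. A wider limit lengthens the distances by construction. With the limit at 250 bp, promoter peaks were still counted up to 500 bp from a TSS. An intergenic peak between these limits was thus itself counted as a promoter peak. This raises the share beside a gene with a promoter peak by construction. A limit of 250 bp adds only peaks close to a TSS. The count rose from 324 to 521 in all, from 167 to 325 upstream and from 69 to 72 in convergent gaps. The upstream and convergent shares thus moved with the rule. The cause of the other shifts was not tested. With protein-coding genes only, the intergenic share was 7.82%, the distances 2362.5 and 1504.5 bp, the share with a near neighbour 44.3% and the share beside a gene with a promoter peak 60.4%. In the stronger 50% of the list the intergenic share was 4.49%, recurrence in both replicates 96.1%, the upstream share 57.5%, the share with a near neighbour 28.3% and the share beside a gene with a promoter peak 44.1%, where promoter peaks too were counted from that part of the list only. With overlap of 50% of both peaks required, 43.8% recurred. Near neighbours were 29.6% within 5 kb and 45.7% within 20 kb. Median G + C content was 34.3% within 100 bp of the summit, and the 8-base word stood within 25 bp in 0.617%. With 1 replicate's list in place of the joint one, the intergenic share was 4.99 to 5.75%, the share with a near neighbour 36.5 to 42.8% and the median G + C content 31.7 to 33.7%.

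The RefSeq annotation, an alternative added after seeing the data, gave the same value for all 13 results. It shares 23125 TSS positions with the 23581 used, so it is nearly the same gene set and no independent check. Counting transposable elements as genes, or using peak midpoints, left all results inside their intervals. No paired analysis was possible because there is a single group. Depth is unknown, so which weak peaks were missed in a replicate for lack of reads cannot be told.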
